A study of Homo sapiens with 12 samples.

Results

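The genes described here are the Ikaros family members IKZF1, IKZF2, IKZF3 and IKZF5, the other lenalidomide-type substrates ZFP91, ZNF692 and CSNK1A1, and the cereblon ligase subunits CRBN, DDB1 and CUL4A. They were chosen by symbol, as 10 of the 18239 genes with a probe set naming 1 gene. They had 37 of 45259 such probe sets, from 2 for IKZF3, IKZF5 and ZFP91 to 12 for CSNK1A1. All 10 passed the filter on low levels and were among the 15173 genes tested.

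Cereblon is the substrate receptor of an E3 ubiquitin ligase in which DDB1 is the adaptor and CUL4A a scaffold. Lenalidomide binds cereblon and makes the ligase take up proteins it would otherwise leave, so-called neosubstrates, which are then degraded by the proteasome. In myeloma cells the best known of these are Ikaros (IKZF1) and Aiolos (IKZF3), zinc finger transcription factors of lymphoid cells whose loss is followed by lower IRF4 and MYC. Arrays measure RNA, so the degradation of these proteins is outside what was measured here.

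The data were 12 arrays of total RNA from cultures labelled as the human myeloma lines ARP1, JJN3 and RPMI-8226, with 1 array for each line and treatment. Each line had a control culture without drug and a culture with CPI203 at 0.01 µM, an inhibitor of the acetyl-lysine-binding BET proteins. A further culture had lenalidomide at 5 µM with dexamethasone at 0.05 µM (LenDex), and the last had CPI203, lenalidomide and dexamethasone at those doses (Combo). Treatment lasted 6 h per the labels' protocol. Lenalidomide and the glucocorticoid dexamethasone were never given apart, so their effects cannot be told apart, and with 1 culture per line and treatment p-values measure the spread between these cultures.

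The cultures labelled JJN3 and RPMI-8226 stood apart from ARP1 and resembled each other. Array levels correlated at 0.963 to 0.981 between those labels and at 0.867 to 0.887 between ARP1 and either. The 8 plasma cell markers had a median log2 level of 11.56 to 11.75 on the ARP1 arrays, 6.99 to 8.31 on the JJN3 arrays and 5.75 to 7.11 on the RPMI-8226 arrays. The 7 B cell markers measured ran the other way, at 5.12 to 5.54, 9.60 to 10.02 and 9.28 to 9.53. SDC1 (CD138), the defining surface protein of plasma cells, averaged 5.38 ± 0.28 on JJN3 and 5.19 ± 0.18 on RPMI-8226 arrays (SD, n = 4), and 12.03 ± 0.25 on ARP1. MS4A1 (CD20) of B cells averaged 11.73 ± 0.11, 11.71 ± 0.25 and 4.95 ± 0.36 in the same order. Both labels therefore went against the markers of a plasma cell line. The treatment calls are given also with the arrays of 1 line left out at a time. No fit left out both JJN3 and RPMI-8226, so no test here is free of both. CD3E of T cells (4.93 to 5.07 as line means) and CD14 of monocytes (4.82 to 5.00) were at the low end on all lines. The medians of their marker lists were at most 5.19 and 5.28 on any array. Single markers differed between lines. Of 6 T cell markers tested 1 was called lower in ARP1 and 1 higher in JJN3 than in RPMI-8226. Of 3 monocyte or macrophage markers tested these counts were 2 and 1.

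Known targets of the drugs responded. TSC22D3 and FKBP5, glucocorticoid-induced genes, were higher by 3.58 ± 0.24 and 1.87 ± 0.09 (log2 difference ± SE, LenDex average effect, both in 3 of 3 lines, limma adjusted p 0.000225 and 2.48e-05). HEXIM1, a P-TEFb inhibitor that BET inhibitors induce, was higher by 1.14 ± 0.22 as a CPI203 average effect (limma adjusted p = 0.0221). By line its difference was 0.23 (ARP1), 1.42 (JJN3) and 1.78 (RPMI-8226). In moderated F tests of whether the effect differs between lines, 1 of these 3 genes was called for CPI203 (0.323% of all genes). For LenDex 1 of the 3 was called (0.369% of all genes).

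Promoters were read for 3 of the 4 genes called lower with CPI203, since a BET inhibitor acts on transcription. The other, IKZF3, had no window in the reference used. Each line gives the 250 bases upstream of the gene's start farthest upstream, 5′ to 3′ on the gene's strand, from RefSeq on GRCh38.p14. IKZF1 has 3 starts, ZNF692 1 and CUL4A 4, and windows of other starts are not shown. The IKZF1 window is chr7:50304466-50304715 (plus strand), that of ZNF692 chr1:248859086-248859335 (minus strand) and that of CUL4A chr13:113207943-113208192 (plus strand). Capitals mark GGGCGG (the GC box bound by SP factors) and TGGGAA (the core that Ikaros proteins recognise).
IKZF1: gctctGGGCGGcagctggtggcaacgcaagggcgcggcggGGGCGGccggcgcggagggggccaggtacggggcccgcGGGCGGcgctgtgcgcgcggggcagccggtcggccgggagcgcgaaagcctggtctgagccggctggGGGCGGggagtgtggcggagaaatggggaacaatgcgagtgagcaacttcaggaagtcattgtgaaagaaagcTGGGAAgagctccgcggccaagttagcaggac
ZNF692: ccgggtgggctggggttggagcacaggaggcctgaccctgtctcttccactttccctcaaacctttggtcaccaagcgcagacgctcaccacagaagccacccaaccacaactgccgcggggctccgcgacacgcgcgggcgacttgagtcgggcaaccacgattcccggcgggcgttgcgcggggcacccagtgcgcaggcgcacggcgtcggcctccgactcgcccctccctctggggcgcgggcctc
CUL4A: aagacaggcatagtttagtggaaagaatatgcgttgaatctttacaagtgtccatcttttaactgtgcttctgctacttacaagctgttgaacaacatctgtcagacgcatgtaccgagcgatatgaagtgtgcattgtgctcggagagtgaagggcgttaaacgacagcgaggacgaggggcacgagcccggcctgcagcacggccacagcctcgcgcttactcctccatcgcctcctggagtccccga
The IKZF1 window held 4 GC boxes and 1 TGGGAA. The ZNF692 and CUL4A windows held none of the motifs searched. Over all 18 windows of the 9 genes with one, GGGCGG on either strand was in 9, TGGGAA in 2 and the E-box CACGTG, the site of MYC and MAX, in 0. Among all 35116 windows of this length 42.64% held GGGCGG, 20.85% TGGGAA and 6.34% CACGTG. A match is a description of letters in the window and no evidence of binding. Base composition was uneven, with 71.2% G and C in the IKZF1 window and 70.4% in that of ZNF692, 52.4% in that of CUL4A and a median of 58.0% over all windows.

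**Figure D1:**
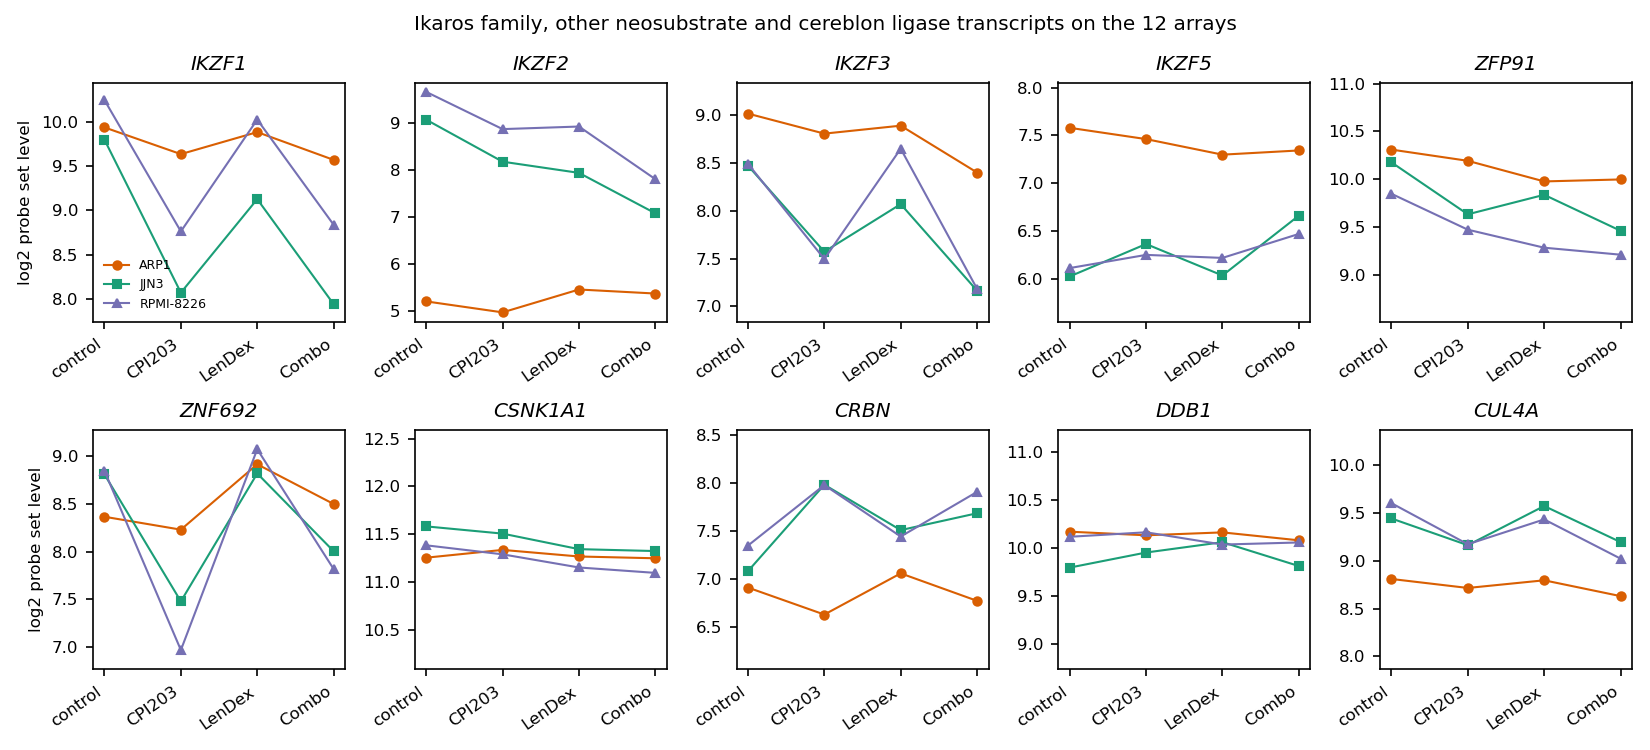
Log2 probe set level (y axis, deposited scale) of each gene in control, CPI203, LenDex and Combo cultures (x axis), with 1 point per array and 1 line per cell line. IKZF1, IKZF3 and CUL4A were lower on both arrays with CPI203 than on both without it in all 3 lines, and IKZF2 was far lower in ARP1 than in the others. How many of all genes separate by CPI203 in this way was not counted.

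The transcripts of Ikaros, Aiolos, ZNF692 and the scaffold CUL4A fell with CPI203 averaged over the presence of LenDex, and none of the 10 genes was called higher. This average sets the 6 arrays with CPI203 against the 6 without it, within lines. The 4 genes called lower of 10 (adjusted p under 0.05 over all genes tested) compare with 3.99% of all genes called lower, and the 0 called higher with 3.3%. The median of the 10 differences was -0.27, and that over all genes -0.0032.

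IKZF1 had log2 levels of 9.94 (control), 9.64 (CPI203), 9.89 (LenDex) and 9.57 (Combo) in ARP1. The same order gave 9.80, 8.07, 9.13 and 7.94 in JJN3 and 10.25, 8.76, 10.03 and 8.84 in RPMI-8226. In each line both arrays with CPI203 lay below both without it, with a narrow gap in ARP1 and wide gaps in the others. Such separation was looked at in the 10 genes only, so it has no share of all genes beside it. The average effect was a fall by 1.04 ± 0.19 (SE), or 2.05-fold (limma, Benjamini-Hochberg adjusted p = 0.0191), made of -0.31 (ARP1), -1.46 (JJN3) and -1.34 (RPMI-8226). All 3 IKZF1 probe sets, tested singly, fell, by 0.57 to 1.04.

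IKZF3 had log2 levels of 9.01, 8.81, 8.89 and 8.40 in ARP1, in the order control, CPI203, LenDex and Combo. In JJN3 they were 8.47, 7.57, 8.07 and 7.16, and in RPMI-8226 8.49, 7.50, 8.65 and 7.18. Aiolos thus separated by CPI203 in all 3 lines as Ikaros did, and its lowest level in every line was that with Combo. It fell by 0.83 ± 0.14, or 1.77-fold (limma adjusted p = 0.0180), with -0.35, -0.90 and -1.23 in ARP1, JJN3 and RPMI-8226. Its other probe set differed by -0.27 ± 0.11 and was not called.

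ZNF692 encodes a zinc finger protein that cereblon also takes up with lenalidomide-type drugs. Its log2 levels were 8.36, 8.23, 8.91 and 8.50 in ARP1, 8.81, 7.48, 8.82 and 8.0045 in JJN3 and 8.84, 6.97, 9.07 and 7.82 in RPMI-8226, in the same order. In JJN3 and RPMI-8226 the culture with CPI203 alone was the lowest and Combo came next, while in ARP1 the Combo level lay above that of the control. It fell by 0.97 ± 0.19, or 1.96-fold (limma adjusted p = 0.0232), with -0.28, -1.07 and -1.56 by line, and all 3 probe sets fell when tested singly.

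CUL4A joins DDB1 and cereblon to the ubiquitin-conjugating enzyme. Its log2 levels were 8.81, 8.72, 8.80 and 8.63 in ARP1, 9.44, 9.16, 9.57 and 9.19 in JJN3 and 9.60, 9.17, 9.43 and 9.02 in RPMI-8226, in the same order. Both arrays with CPI203 were below both without it in every line, by small steps, again with no count over all genes. It fell by 0.29 ± 0.08, or 1.22-fold (limma adjusted p = 0.0471). Of its 3 probe sets, all were lower and 1, not the brightest, was called when tested singly.

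The other members did not pass the threshold. CRBN, the receptor itself, had log2 levels of 6.91, 6.63, 7.06 and 6.77 in ARP1, 7.08, 7.99, 7.51 and 7.69 in JJN3 and 7.35, 7.98, 7.44 and 7.91 in RPMI-8226. The arrays with CPI203 were the lower ones in ARP1 and the higher ones in JJN3 and RPMI-8226, with no overlap in any line. How often this occurs among all genes was not counted. Its average effect was 0.27 ± 0.15, with a 95% interval of -0.06 to 0.60 (limma adjusted p = 0.308). IKZF2 differed by -0.66 ± 0.24 (adjusted p = 0.127), ZFP91 by -0.24 ± 0.08 (0.101) and IKZF5 by 0.21 ± 0.10 (0.249) in limma. CSNK1A1, the casein kinase 1α gene, and DDB1 differed by -0.03 and -0.02, with intervals of -0.17 to 0.11 and -0.17 to 0.13.

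**Figure D2:**
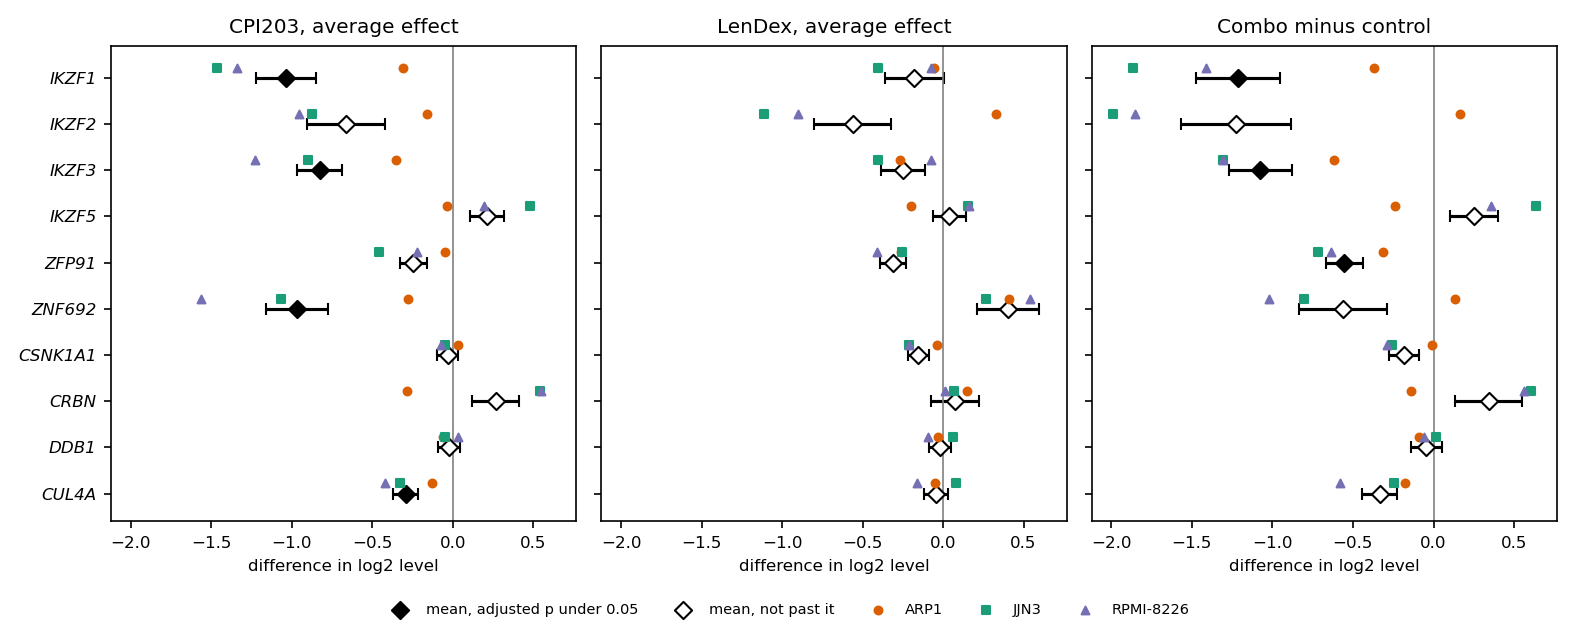
Difference in log2 level (x axis) of each gene (y axis) for the CPI203 average effect, the LenDex average effect and Combo minus control. Diamonds are means with SE bars (filled where the limma adjusted p was under 0.05) and coloured symbols are the 3 lines; the CPI203 differences of IKZF1, IKZF3 and ZNF692 are nearest to 0 in ARP1.

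The calls for CPI203 were lost without either the JJN3 or the RPMI-8226 arrays. Without the JJN3 arrays the effect was -0.82 for IKZF1, -0.79 for IKZF3, -0.92 for ZNF692 and -0.27 for CUL4A, with limma adjusted p of 0.339, 0.336, 0.360 and 0.379. Without the RPMI-8226 arrays it was -0.89, -0.63, -0.67 and -0.23 in that order, again with no call. Leaving out the JJN3 control array alone gave limma adjusted p of 0.0565 for IKZF1 and IKZF3, 0.0731 for ZNF692 and 0.0914 for CUL4A. With JJN3 and RPMI-8226 averaged as 1 line, no member was called and IKZF1 stood at -0.86, but 0 of all genes were called there. Without the ARP1 arrays 7 members were called: IKZF1 (-1.40), IKZF2 (-0.92), IKZF3 (-1.07), ZFP91 (-0.34), ZNF692 (-1.32) and CUL4A (-0.37) lower and CRBN (0.54) higher. How many of all genes were called without a line is not given here, so these counts have no share beside them.

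CPI203 differences in ARP1 were nearer to 0 than those in the other lines for IKZF1, IKZF2, IKZF3, IKZF5, ZFP91, ZNF692, CRBN and CUL4A. The HEXIM1 difference was likewise smallest in ARP1. A direct limma test of whether the CPI203 effect differs between lines called 0 of 10 (0.323% of all genes). Of the 10, 6 had an unadjusted p under 0.05, as did 2237 of all 15173 genes tested. Adjusted p was 0.112 for IKZF1, 0.138 for IKZF2, 0.166 for ZNF692, 0.194 for IKZF3 and 0.243 for CRBN in limma. ARP1 is also the line set apart by the plasma cell and B cell markers.

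Most plasma cell markers had a difference below 0 with CPI203, without a call. MZB1 (-0.04 ± 0.07) and SDC1 (-0.14 ± 0.10) changed little, and CD38 was above 0 (0.22 ± 0.10). The median log2 level of the 8 markers in control, CPI203, LenDex and Combo cultures was 11.75, 11.68, 11.70 and 11.56 in ARP1, 8.31, 7.0004, 7.80 and 6.99 in JJN3 and 7.11, 5.75, 6.30 and 6.21 in RPMI-8226. As a CPI203 average effect 7 of the 8 were below 0 with a median of -0.32, and none was called in limma. At an unadjusted p under 0.05 were 4 of the 8 and 3662 of all 15173 genes tested. TNFRSF17 (BCMA), a plasma cell survival receptor, differed by -1.65 ± 0.44 (limma adjusted p = 0.0520), and its CPI203 effect differed between lines (moderated F test, 0.0262). With Combo the median was -0.47 and 1 of 8 fell, SLAMF7, a surface protein of plasma cells, by 1.85 ± 0.31 (limma adjusted p = 0.0109), which was also the 1 called as a LenDex average, lower by 1.32 ± 0.22 (0.0146). Of the 6 B cell markers tested none was called for CPI203 in limma, and their median was -0.09. At an unadjusted p under 0.05 were 2 of these 6, beside the same 3662 of all 15173 genes. The part of these markers in the member results was not tested. In RNA from a whole culture, fewer cells of a type and less RNA per cell cannot be told apart.

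**Figure D3:**
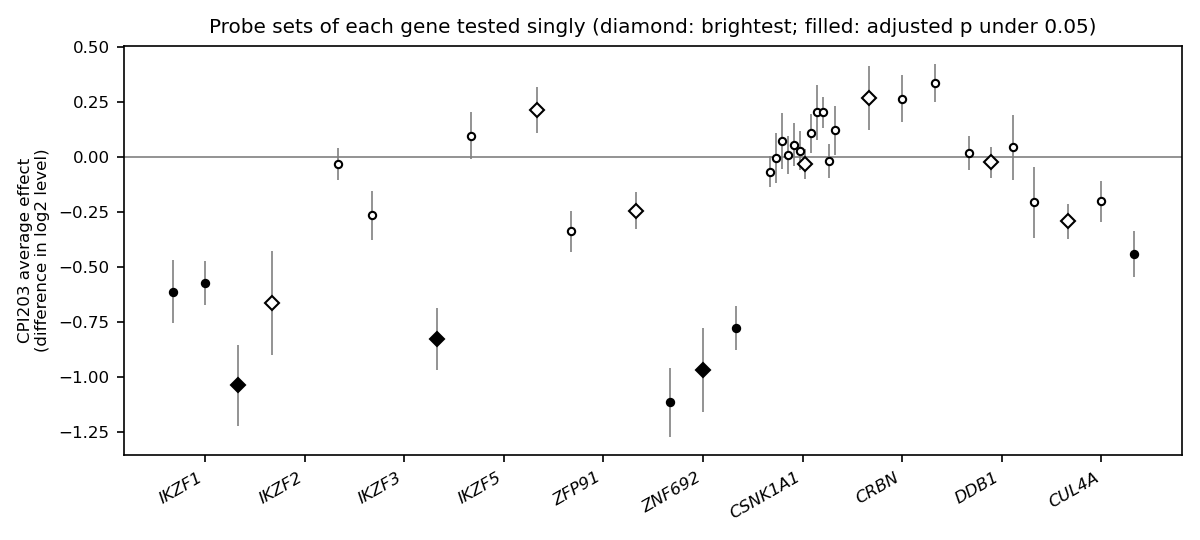
CPI203 average effect (y axis, difference in log2 level, bars SE) of every member probe set tested, grouped by gene (x axis), with the brightest probe set of a gene as a diamond and filled symbols for a limma adjusted p under 0.05 over all probe sets. The IKZF1 and ZNF692 probe sets are all filled and below 0, while those of CSNK1A1 lie on both sides of 0.

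Against control alone, CPI203 gave no member call in limma (0 of 10, with 0.00659% of all genes called). Of the 10, 5 had an unadjusted p under 0.05, as did 2455 of all 15173 genes tested. IKZF1 differed by -1.18 ± 0.26 (limma adjusted p = 0.0998), ZNF692 by -1.11 ± 0.27 (0.109) and IKZF3 by -0.70 ± 0.20 (0.142). This comparison uses 3 arrays a side where the average effect uses 6, and it shares its control arrays with the comparisons that follow.

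LenDex moved none of the 10 transcripts past the threshold at 6 h. Limma called 0 of 10 against control (0.461% of all genes called), with 1 at an unadjusted p under 0.05 (2079 of all 15173 genes). As an average over the presence of CPI203 it called 0 of 10 (4.25% of all genes). Of the 10, 3 were at an unadjusted p under 0.05 (2863 of all 15173 genes). Ikaros and Aiolos RNA differed by -0.18 (95% interval -0.59 to 0.24) and -0.25 (-0.56 to 0.06) in that average. CRBN differed by 0.07 (-0.25 to 0.40). These intervals span 0 and do not show that the levels were equal.

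ZFP91, a zinc finger protein with ubiquitin ligase activity, came nearest to a LenDex call. Its log2 levels in the order control, CPI203, LenDex and Combo were 10.31, 10.19, 9.98 and 9.999 in ARP1, 10.18, 9.63, 9.84 and 9.46 in JJN3 and 9.85, 9.47, 9.29 and 9.21 in RPMI-8226. Both arrays with LenDex lay below both without it in ARP1 and RPMI-8226 but not in JJN3, with no count over all genes. The average effect was -0.31 ± 0.08 (limma adjusted p = 0.0654), with -0.26, -0.26 and -0.41 by line. Its other probe set differed by -0.14 and was not called. ZFP91 was called as a LenDex average in 2 of 12 alternative settings.

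An RNA quality measure moved with LenDex in RPMI-8226: the actin 3′ minus 5′ difference of control probe sets was 0.45 (LenDex) and 0.39 (Combo) there against 0.27 (control) and 0.23 (CPI203). CSNK1A1 had 11.15 and 11.10 on those LenDex and Combo arrays against 11.38 and 11.29 on the control and CPI203 arrays. Its LenDex average effect was -0.15 ± 0.06 (limma adjusted p = 0.237). The part of RNA quality in these values was not tested.

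ZNF692 differed by 0.40 ± 0.19 with LenDex (limma adjusted p = 0.299), higher in 3 of 3 lines, which is the opposite sign to its fall with CPI203. All 3 of its probe sets were higher with LenDex, and 1 of them was called at 0.42 ± 0.10 (limma adjusted p = 0.0496 over all probe sets).

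IKZF2 (Helios) was the member with the most uneven response to LenDex. Its log2 levels were 5.21, 4.98, 5.46 and 5.38 in ARP1, close to the low-level filter of 5. They were 9.07, 8.18, 7.94 and 7.08 in JJN3 and 9.66, 8.87, 8.93 and 7.81 in RPMI-8226, with control highest and Combo lowest in both. The LenDex average effect was 0.33 for ARP1, -1.11 for JJN3 and -0.90 for RPMI-8226. The measured values differed between lines (moderated F test in limma, adjusted p = 0.0455), the 1 call among the 10 genes, where 0.369% of all genes were called. In ARP1 the level lay near that of unexpressed T cell markers such as CD3E (4.99 ± 0.15 there, SD, n = 4), so a fall could not have been seen there, and a different effect and a level at background cannot be told apart. The call was lost without the ARP1 arrays (adjusted p = 0.763), without the JJN3 arrays (0.147) and without the JJN3 control array (0.212). IKZF2 was also not called in this test when its probe sets were averaged. The other IKZF2 probe set tested was near 5 on every array and differed by -0.09 ± 0.07 as a LenDex average.

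With all drugs together, Ikaros, Aiolos and ZFP91 transcripts fell against control. These 3 of 10 compare with 5.6% of all genes called lower, and the median of the 10 was -0.44 against 0.01 over all genes. IKZF1 fell by 1.22 ± 0.26, or 2.32-fold (limma adjusted p = 0.0222), with -0.37, -1.86 and -1.41 by line. IKZF3 fell by 1.08 ± 0.20, or 2.11-fold (0.0136), with -0.62 in ARP1 and -1.31 in both other lines. ZFP91 fell by 0.55 ± 0.12, or 1.47-fold (0.0201), with -0.31, -0.72 and -0.64. Of its 2 probe sets, 1 was called when tested singly.

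IKZF2 differed by -1.23 ± 0.34 with Combo (limma adjusted p = 0.0539), at 0.17 for ARP1, -1.99 for JJN3 and -1.86 for RPMI-8226. Its mean difference was as large as that of IKZF1, with a wider spread between lines. CUL4A differed by -0.34 ± 0.11 (0.0833), ZNF692 by -0.56 ± 0.27 (0.242) and CRBN by 0.34 ± 0.21 (0.361) in limma. The 3 Combo calls were lost in the same leave-outs: without JJN3 the limma adjusted p was 0.281, 0.233 and 0.234 for IKZF1, IKZF3 and ZFP91. Without RPMI-8226 it was 0.273, 0.173 and 0.265, and without the JJN3 control array 0.0984, 0.0684 and 0.0907. They were also lost with JJN3 and RPMI-8226 averaged as 1 line, where 3 of all genes were called. The same held when only the control and Combo arrays entered the fit, where 2 of all genes were called. Without ARP1, 7 members were called, with IKZF1 at -1.64, IKZF2 at -1.92, IKZF3 at -1.31 and ZFP91 at -0.68, again with no share of all genes given.

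Combo was not called against either partner for any member, in comparisons that called few or none of all genes. Limma called 0 of 10 against CPI203 (0.0461% of all genes, 0 members and 1660 of all 15173 genes at an unadjusted p under 0.05). Against LenDex it called 0 of 10 (0% of all genes, 4 members and 2264 of all 15173 genes at an unadjusted p under 0.05). Those 4 were IKZF1 (-0.90, unadjusted 95% interval -1.49 to -0.31), IKZF3 (-0.95, -1.39 to -0.51), ZNF692 (-0.83, -1.44 to -0.22) and CUL4A (-0.32, -0.56 to -0.08). Each was lower in 3 of 3 lines. In the interaction, the part of Combo beyond the sum of CPI203 and LenDex on the log2 scale, limma called 0 of 10 (0% of all genes). At an unadjusted p under 0.05 were 0 members and 472 of all 15173 genes. Interaction values ran from -0.30 for CRBN to 0.28 for ZNF692. For IKZF1 the 95% interval was -0.55 to 1.104 and for IKZF3 -0.87 to 0.37, so departures from additivity of this size were not detectable with these arrays.

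Levels in ARP1 were called different for 7 of the 10 genes, in a comparison that called 7511 of the 15173 genes tested. Relative to the mean of JJN3 and RPMI-8226 and over all treatments, 4 were higher in ARP1, where 24.1% of all genes were higher, and 3 were lower, where 25.4% were. IKZF5 (Pegasus) was higher by 1.15 ± 0.11, IKZF3 by 0.89 ± 0.15, IKZF1 by 0.66 ± 0.20 and ZFP91 by 0.50 ± 0.09 (limma adjusted p from 9.37e-06 to 0.0176). IKZF2 was at least 9.11-fold lower, a measured log2 difference of -3.19 ± 0.26 (limma adjusted p = 2.5e-06) that is a bound because ARP1 lay near the level of unexpressed markers, with line means of 5.26 ± 0.21, 8.07 ± 0.82 and 8.82 ± 0.76 (SD, n = 4). CRBN was lower, at -0.78 ± 0.16 (0.00183), and so was CUL4A, at -0.59 ± 0.08 (0.000132), both in limma with adjusted p in brackets. The IKZF1 call was lost without the JJN3 arrays (0.29, limma adjusted p = 0.364) and with JJN3 and RPMI-8226 averaged as 1 line (adjusted p = 0.0602). Both probe sets were higher in ARP1 for IKZF3 when tested singly, but for IKZF5 and ZFP91 the second probe set was not called, at 0.25 ± 0.11 and -0.03 ± 0.10. ZNF692, CSNK1A1 and DDB1 were not called, at 0.27 ± 0.20, -0.06 ± 0.07 and 0.14 ± 0.07, although with probe sets averaged CSNK1A1 was higher in ARP1 by 0.21 (limma adjusted p = 0.0129) and DDB1 by 0.54 (0.000127). One DDB1 probe set stood out among its 4, at 1.57 ± 0.16.

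Between JJN3 and RPMI-8226 limma called 0 of 10 levels, where 15.5% of all genes were called. Of the 10, 5 had an unadjusted p under 0.05, as did 4324 of all 15173 genes tested. IKZF1 differed by -0.74 ± 0.23 (limma adjusted p = 0.0557), IKZF2 by -0.75 ± 0.30 (0.125) and ZFP91 by 0.32 ± 0.10 (0.0572). Paired by treatment, JJN3 lay below RPMI-8226 in 4 of 4 treatments for IKZF1 and IKZF2 and above it in 4 of 4 for ZFP91 and CSNK1A1.

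With each line centred on its own mean, IKZF1 correlated over the 12 arrays with IKZF3 at r = 0.94, CUL4A at 0.87, ZNF692 at 0.85, IKZF2 at 0.75, ZFP91 at 0.73 and CSNK1A1 at 0.41. The values for CRBN and IKZF5 were -0.84 and -0.75, and that for DDB1 -0.07. Among all genes tested the nearest to IKZF1 were MRPL3 (0.986), ZFP64 (0.985), SLC5A6 (0.984), TIMM21 (0.977) and HCFC1 (0.975), and to IKZF3 TRIAP1 (0.984), CACNB2 (0.978), NSD1 (0.978), DHX33 (0.975) and EMP3 (0.973). These values describe the 12 arrays, which share treatments and lines.

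Few of the other genes of the pathway were called. Among 12 further cereblon neosubstrates, 2 fell as a CPI203 average effect (3.99% of all genes fell): ZNF827, a zinc finger gene, by 0.88 ± 0.16 (limma adjusted p = 0.0191) and RAB28, a small GTPase gene, by 0.54 ± 0.13 (0.0374). ARID2, a SWI/SNF subunit, was the 1 of the 12 that fell with Combo (5.6% of all genes), by 0.59 ± 0.16 (limma adjusted p = 0.0489). GSPT1, a translation termination factor, differed by -0.11 ± 0.06 and was not called. IKZF4 (Eos), the remaining Ikaros family gene, differed by -0.26 ± 0.10 with CPI203 and 0.05 ± 0.10 with LenDex, both not called.

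Of 22 genes of the ligase machinery (CUL4B, RBX1, neddylation enzymes and COP9 signalosome subunits), 20 were tested. None was called for CPI203 or LenDex as average effects in limma, with 3 and 7 at an unadjusted p under 0.05. Of all 15173 genes tested 3662 and 2863 were under it. With Combo 1 of 20 fell (5.6% of all genes), NAE1, a subunit of the NEDD8-activating enzyme, by 0.35 ± 0.10 (limma adjusted p = 0.0471). Among 13 chromatin partners of Ikaros, from the NuRD, SIN3 and CtBP complexes, the deacetylase gene HDAC2 fell with Combo by 0.38 ± 0.09 (limma adjusted p = 0.0332) and GATAD2B rose by 0.49 ± 0.09 (0.0131), 1 of 13 each way where 5.6% of all genes fell and 3.55% rose. HDAC2 was also the 1 of 13 called as a LenDex average, lower by 0.27 ± 0.06 (limma adjusted p = 0.0485), where 4.25% of all genes were called. CSNK1E, a relative of CSNK1A1, fell with LenDex by 0.39 ± 0.07 (limma adjusted p = 0.0212), the 1 call among 4 relatives tested (4.25% of all genes).

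Of the 10 genes known to follow the loss of Ikaros and Aiolos, 1 fell and 1 rose as a CPI203 average effect, where 3.99% of all genes fell and 3.3% rose. MYC fell by 0.51 ± 0.10 (limma adjusted p = 0.0250) and also with Combo, by 0.81 ± 0.15 (0.0129), lower in 3 of 3 lines each time. IRF7, an interferon regulator, rose by 1.38 ± 0.29 (0.0282), by 0.21, 2.25 and 1.68 in the respective lines, and its CPI203 effect differed between lines (moderated F test in limma, 0.0262). IRF4, the lymphoid factor that Ikaros and Aiolos sustain in myeloma, differed by 0.37 ± 0.12 with CPI203 (0.0924) and by -0.08 ± 0.12 with LenDex (0.784), neither past the threshold. None of the 10 was called as a LenDex average in limma, and 3 had an unadjusted p under 0.05, as did 2863 of all 15173 genes. With Combo 2 of the 10 fell (5.6% of all genes), MYC and the interferon-stimulated gene IFI44, the latter by 0.53 ± 0.14 (0.0476).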

How the data were processed

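Per the submitters' processing notes, the authors ran RMA (Affymetrix Expression Console 1.1). The deposited levels are on a log2 scale, judged by their range, and whether the 12 arrays were normalized together is not given in the sources used here. RMA sets arrays to a common distribution, so differences are relative to the bulk of transcripts. The labels' protocols give 150 ng of total RNA per array. The number of arrays limits the precision.

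Each gene was represented by its single-symbol probe set of highest mean, levels of different probe sets were not compared, and genes reaching log2 5 on 3 or more arrays entered the tests. A model with cell line and treatment as terms was fitted to all 12 arrays in limma 3.58.1 (R 4.3.3), which left 6 residual degrees of freedom, and two-sided p-values were adjusted by Benjamini-Hochberg across every gene tested. Line differences in response came from a moderated F test with 3 residual degrees of freedom. The line is a block because same-numbered samples come from the same line. Deviations from group means correlated at 0.91 to 0.94 within ARP1, 0.82 to 0.88 within JJN3 and 0.83 to 0.89 within RPMI-8226. They correlated at 0.38 to 0.48 between JJN3 and RPMI-8226 and at -0.86 to -0.74 between ARP1 and either. The deviations of a treatment sum to 0 over the 3 lines, which fixes part of these values. The fit took JJN3 and RPMI-8226 as separate lines. The fit was tested on simulated data. Members and lists were chosen with earlier results of these data known. Pathway genes outside the members were named where called in a treatment comparison, or as the best known of a list. The 5 genes most like IKZF1 and IKZF3 were named by Pearson correlation. Alternatives were the filter, probe set choice, normalization, variance prior, line term and left-out arrays.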

Additional observations from a re-analysis of the deposited data

Results flagged for a closer look

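The measured LenDex difference of IKZF2 differed between the lines by a direct test (limma moderated F test, adjusted p = 0.0455). The 2 arrays with LenDex minus the 2 without it gave 0.33 in ARP1, where IKZF2 lay near the level of unexpressed markers and a fall could not have been seen, against -1.11 in JJN3 and -0.90 in RPMI-8226. Over the alternatives the adjusted p ran from 0.00313 to 0.763. It was 0.763 without the ARP1 arrays. A different effect in ARP1 and a level at background there cannot be told apart.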

How the results depend on the processing

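Most member values kept their direction and their side of the threshold, and most of these were not called in the main analysis. The 959 values counted under 13 alternative settings leave out some members in part of the comparisons. Of them 850 kept both, 45 lost and 37 gained a call, and the 27 that changed sign were not called in the main analysis. The calls were less steady. As a CPI203 average effect IKZF1, IKZF3 and ZNF692 were called in 7 of 12 alternatives and CUL4A in 6. With Combo IKZF1, IKZF3 and ZFP91 were called in 7 of 13. Leaving out 1 line or the JJN3 control array moved the members called from 4 to between 0 and 7 for the CPI203 average effect and from 3 to between 0 and 7 for Combo against control. Those ranges were 0 to 5 for CPI203 against control, 0 to 1 for LenDex against control, the LenDex average, its line difference and Combo against CPI203, 0 to 4 for Combo against LenDex and 1 to 2 for JJN3 against RPMI-8226 levels. How many of all genes were called in these leave-outs is not given here, so the ranges have no share beside them. With no replicate block (no cell line term) 0 were called for the CPI203 average and 0 for Combo, and likewise 0 and 0 with JJN3 and RPMI-8226 averaged. Each of these settings called 0 of all genes for the CPI203 average and 3 for Combo. The block changed no other member count among the treatment comparisons. With only the control and Combo arrays Combo had 0 (2 of all genes called). A mean log2 level of 6 or more gave 5 for Combo, 1 for the LenDex average and 2 for JJN3 against RPMI-8226. Probe sets tested singly gave 1 and 2 for the latter comparisons. A variance trend with robust moderation gave 1 and 2 there, 1 for Combo against LenDex and 2 where the CPI203 response was compared between lines. Averaging probe sets gave 0 for the LenDex line difference and 2 for JJN3 against RPMI-8226.

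The sign changed for small differences. With averaged probe sets CSNK1A1 stood at 0.0642 against control and 0.0567 as an average with CPI203 and at 0.205 for ARP1 against the other lines. The same setting gave DDB1 -0.0149 with LenDex against control, IKZF3 0.0416 and CRBN 0.00183 in the interaction and IKZF5 -0.0426 as a LenDex average. Cyclic loess gave CUL4A 0.0449 with LenDex against control and 0.0134 as its average, and DDB1 0.00995 with Combo and 0.0335 as a LenDex average. With JJN3 and RPMI-8226 averaged IKZF5 was -0.0208 as a LenDex average. For LenDex against control, leave-outs ran from -0.166 to 0.0582 for IKZF5, -0.264 to 0.0158 for IKZF3, -0.0443 to 0.129 for DDB1 (-0.00253 without the JJN3 control array) and -0.0919 to 0.0582 for CUL4A. As LenDex averages they ran from -0.0231 to 0.158 for IKZF5 (-0.0185 without JJN3, -0.0169 without its control array), -0.0619 to 0.0162 for DDB1, -0.105 to 0.0159 for CUL4A and -0.00511 to 0.106 for CRBN. With CPI203 against control they ran from -0.0848 to 0.00479 for CSNK1A1 (0.00302 without RPMI-8226) and -0.00596 to 0.102 for DDB1, and for the ARP1 level of CSNK1A1 from -0.162 to 0.0461. The cause of these changes was not tested. Without 1 line, 8 arrays remain, and the array number limits what small differences can show.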

Other observations

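Line differences in response were also called outside the 10 genes. ZBTB16 (PLZF), a zinc finger gene known as a glucocorticoid target and a cereblon neosubstrate, had a LenDex average effect of 3.24 for ARP1, 0.30 for JJN3 and 0.07 for RPMI-8226, and the effect differed between lines (limma moderated F test, adjusted p = 0.0121). The interferon-stimulated gene IFIT2 had a CPI203 average effect of 0.39 for ARP1, -0.15 for JJN3 and 1.67 for RPMI-8226, and its CPI203 effect differed between lines (limma moderated F test, adjusted p = 0.0262). The fetal globin gene HBG1 averaged 12.31 ± 0.07 on ARP1, 13.27 ± 0.06 on JJN3 and 7.66 ± 0.95 on RPMI-8226 arrays (SD, n = 4), while the erythroid chaperone gene AHSP lay between 4.76 and 4.89 as line means.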
